A study of Mus musculus with 6 samples.

Results

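The 33 genes described here encode enzymes of cholesterol and fatty acid synthesis and the proteins that control them, and most are known targets of the sterol regulatory element-binding proteins (SREBPs). They were taken by gene symbol from a written list, and all 33 were found among the 56092 symbols of the count table. They were split by role into 8 genes of the mevalonate and isoprenoid branch, 11 of the sterol branch, 8 of the fatty acid branch and 6 regulators and transport proteins. The libraries came from the mouse macrophage line RAW264.7, carrying either a control lentiviral vector (shNC, called an empty vector in the labels, with a control hairpin listed in the methods) or a vector with an shRNA against Trem2, the lipid-sensing receptor of myeloid cells (shTrem2). Both vectors also expressed GFP, and stably transduced cells were selected with puromycin. Both groups were given 20 ng/mL IL-4 over 24 hours, then debris of TCMK-1 cells, a mouse kidney tubular line, over another 24 hours, and RNA of 3 replicates per group was sequenced. The sources used here do not say which of the listed Trem2 hairpins these libraries carried. The sources name a single stable line per hairpin, so an effect of the knockdown and a difference between the transduced lines cannot be told apart. Nothing in the labels says that the replicates were separate cultures, so the p-values below measure the spread between these libraries, which may be technical.

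Cells make cholesterol from acetyl-CoA through mevalonate, farnesyl diphosphate, squalene and lanosterol, and they make long-chain fatty acids from the same precursor through malonyl-CoA. SREBP-2 mainly drives the sterol genes and SREBP-1 mainly the fatty acid genes. Both are held in the endoplasmic reticulum by Scap and the Insig proteins when sterols are plentiful, and are cut and sent to the nucleus when sterols are scarce. In macrophages the pathway is known to respond to lipids taken up with engulfed cells, to growth and to inflammatory signals.

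Promoters of SREBP targets classically hold a sterol regulatory element next to sites for the cofactors NF-Y and Sp1, so the promoter letters of a few genes whose values follow are shown first. They were taken from RefSeq for 26 of the 33 genes in build GRCm38.p6, whereas the processing notes of the submitters name GRCm39 for the measurements, and no coordinates were passed between the builds. Each window holds the last 150 bases before the annotated start, 5′ to 3′ on the strand of the gene. The genes were chosen to show 3 enzymes of the sterol branch that rose (Lss, Cyp51 and Nsdhl), the mevalonate gene with the classical element (Hmgcs1), the regulator that rose most (Insig1), the gene with the lowest log2 fold change (Ggps1) and the gene with the highest (Fads2). The windows are chr13:119690201-119690350 (plus strand) for Hmgcs1, chr10:76531455-76531604 (plus) for Lss, chr5:4104698-4104847 (minus) for Cyp51, chrX:72918371-72918520 (plus) for Nsdhl, chr5:28071262-28071411 (plus) for Insig1, chr13:14063489-14063638 (minus) for Ggps1 and chr19:10101504-10101653 (minus) for Fads2. Capitals mark matches on either strand to TCACNCCAC (a form of the sterol regulatory element), CCAAT (the core of an NF-Y site) and GGGCGG (the core of an Sp1 site), and no matches overlapped in these windows.
Hmgcs1: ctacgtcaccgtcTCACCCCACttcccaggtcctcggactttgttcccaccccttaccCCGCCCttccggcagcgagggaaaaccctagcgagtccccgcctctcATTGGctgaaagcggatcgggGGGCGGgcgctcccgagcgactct
Lss: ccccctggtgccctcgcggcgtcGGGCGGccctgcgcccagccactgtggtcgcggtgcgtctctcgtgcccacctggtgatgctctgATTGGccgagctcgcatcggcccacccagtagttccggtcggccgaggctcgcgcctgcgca
Cyp51: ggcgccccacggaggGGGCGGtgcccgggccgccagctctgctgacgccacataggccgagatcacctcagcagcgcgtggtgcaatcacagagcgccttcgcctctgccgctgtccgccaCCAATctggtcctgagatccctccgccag
Nsdhl: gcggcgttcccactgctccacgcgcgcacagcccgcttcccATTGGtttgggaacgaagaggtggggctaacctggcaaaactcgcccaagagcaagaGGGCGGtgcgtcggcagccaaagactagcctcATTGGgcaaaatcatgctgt
Insig1: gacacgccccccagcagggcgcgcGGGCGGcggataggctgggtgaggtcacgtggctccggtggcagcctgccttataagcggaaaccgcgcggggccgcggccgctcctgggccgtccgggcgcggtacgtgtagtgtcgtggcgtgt
Ggps1: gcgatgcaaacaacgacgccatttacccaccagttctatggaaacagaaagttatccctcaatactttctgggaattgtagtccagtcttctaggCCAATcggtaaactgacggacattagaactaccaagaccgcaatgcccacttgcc
Fads2: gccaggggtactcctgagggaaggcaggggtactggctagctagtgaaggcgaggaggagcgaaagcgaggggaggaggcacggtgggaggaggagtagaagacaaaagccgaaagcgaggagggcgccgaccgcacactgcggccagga

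The Hmgcs1 window held all 3 motifs, with TCACCCCAC 137 bases before the start. The Lss, Cyp51 and Nsdhl windows each held CCAAT and GGGCGG, the Ggps1 window CCAAT only, and the Fads2 window none of them. The Insig1 window held GGGCGG, and its CCAAT match lay further upstream, outside the letters shown. A GGGCGG match of Fads2 also lay outside the letters shown, 186 bases before the start. Over 300 bases (250 before to 50 after the start), CCAAT occurred in 21 of the 26 genes with a sequence (80.8%). This compares with 43.4% of the 9600 tested genes with a sequence and 41.1% of all 27025 genes with a sequence. GGGCGG occurred in 21 of the 26 (80.8%), against 67.7% of those tested genes and 38.2% of all genes with a sequence. Both occurred in the same promoter in 17 of the 26 genes (65.4%), against 27.4% of the tested genes. By branch this was 9 of 9 sterol genes, 4 of 7 mevalonate and isoprenoid genes, 1 of 5 fatty acid genes and 3 of 5 regulators. TCACNCCAC occurred in Hmgcs1 alone, against 1.39% of the tested genes and 1.44% of all genes with a sequence. Other forms of the sterol regulatory element were not searched, so a promoter without this match may still hold one. TCACGTGA, an E-box that SREBP-1 can bind, occurred in none, against 2.26% of the tested genes and 1.12% of all genes with a sequence. A match of letters describes the sequence and not the binding of a factor, and a gene with several annotated starts, as 5 of the 26 have, was counted once if any of its promoters matched. No sequence was read for Fdps, Fdft1, Sqle, Stard4, Scd1, Scd2 and Fads1.

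Trem2 was examined first as a check of the labels. Its summed estimated counts were 1835, 2204 and 2615 in the shNC libraries and 1241, 1209 and 1557 in the shTrem2 libraries, in the order of the replicates. As CPM (counts over the library total, scaled by the TMM method) these were 114, 122 and 144 against 64.7, 63.1 and 80.1. The groups did not overlap, with a log2 fold change of -0.87 (SE 0.0939, adjusted p = 3.39e-06, edgeR). The fall was larger, at -2.15, when the highest transcript row of Trem2 alone was used. It was also larger in FPKM (per length of transcript), from 178 ± 28.5 in shNC to 41.7 ± 4.14 in shTrem2 (SD, n = 3). Each shNC library held between 15876061 and 18088372 counts of named genes and each shTrem2 library between 19358113 and 19655158, so every shTrem2 library was the deeper, and the part of this difference in the results below was not tested beyond the scaling alternatives. Where no count is seen, up to 3 counts remain possible, which is 0.153 to 0.189 CPM and covers counting error only. Of 12 macrophage markers 11 were tested, and Csf1r, Lyz2, Cd68, Itgam and Ptprc each averaged at least 270.3 CPM in both groups. Arg1, the gene that gives these cells their name in the study, had 2, 2 and 2 counts in shNC and 1, 3 and 1 in shTrem2, and was not tested. Of 16 tubular epithelial markers 9, Epcam and Umod among them, had no count in any library, and the counts of the whole list summed to between 11 and 20 per shNC library and between 43 and 57 per shTrem2 library. The only tested gene of that list was the water channel Aqp1, with 12, 6 and 5 counts against 38, 50 and 39.

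Most of the 33 genes were higher in shTrem2. A gene was called when its Benjamini-Hochberg FDR was under 0.05 and its fold change over 1.5, and by this rule 16 of the 33 genes (48.5%) were called higher and none lower, against 9.46% of the 13528 tested genes called higher and 12.4% called lower. By FDR alone 27 rose and 2 fell (Ggps1 and Insig2), against 28.8% and 28.6% of all tested genes. A test against 1.5-fold itself (glmTreat) kept 15 of the 16, and the gene lost was Ebp. The median log2 fold change was 0.52 over the 33 genes and -0.00 over all tested genes. In 27 genes every shTrem2 library lay above every shNC library, as in 32.1% of all tested genes. The order was the opposite in Ggps1 alone, as in 31.7% of all tested genes, and the groups overlapped in Tm7sf2, Hsd17b7, Fasn, Elovl6 and Insig2. The members were listed with earlier results of these data known, so these counts describe the list and no test was run over it.

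**Figure D1:**
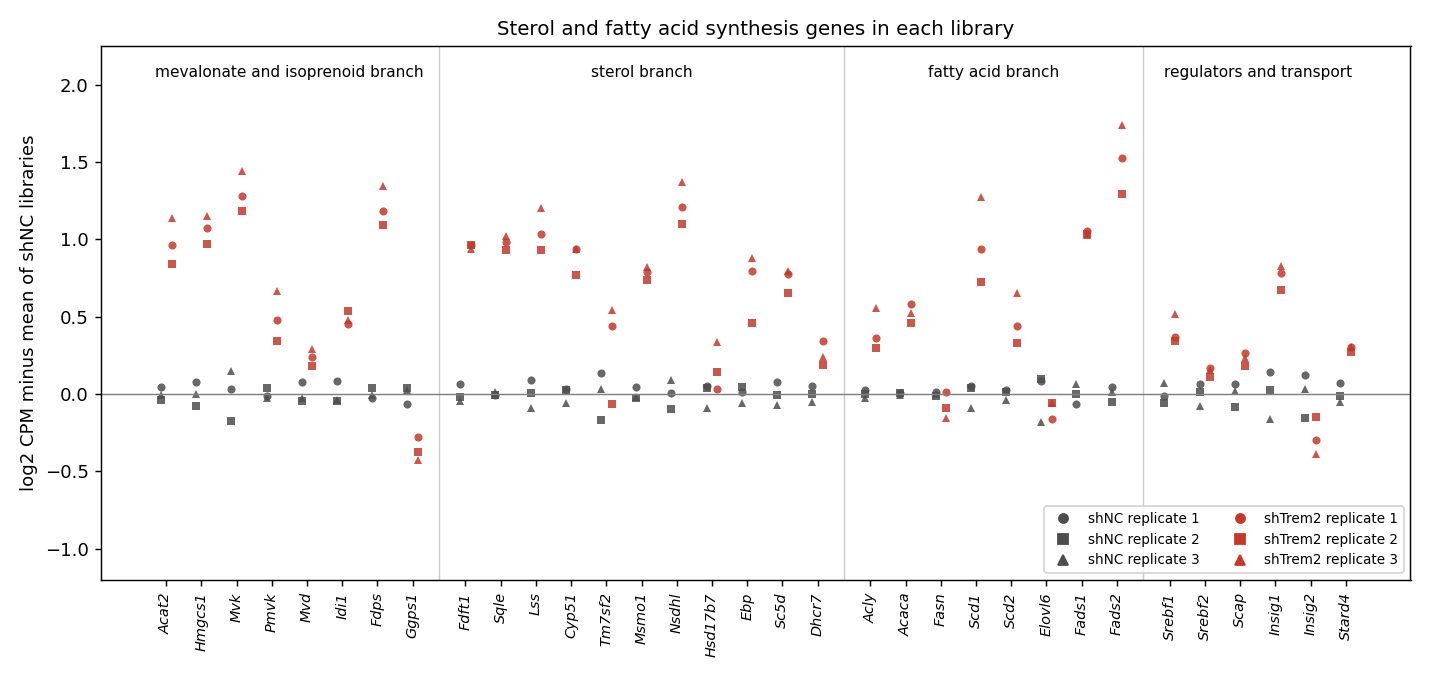
Each point is a library, with the log2 CPM of the gene minus the mean of the 3 shNC libraries on the y axis and the 33 genes on the x axis, grouped by branch (grey for shNC, red for shTrem2, with a marker shape per replicate). The 3 red points sit above the 3 grey points in 27 genes and below them in Ggps1 only.

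Summed over its genes, each branch was higher in all 3 shTrem2 libraries. The mevalonate and isoprenoid branch summed to 654, 628 and 630.4 CPM in shNC and 1096, 1055 and 1177 CPM in shTrem2, a ratio of group means of 1.74. The sterol branch rose by the ratio 1.77, from between 610.1 and 647 CPM to between 1048 and 1159 CPM. The fatty acid branch was the most abundant in reads and had a ratio of 1.41, from 2328 to 2391 CPM in shNC and 3088 to 3607 CPM in shTrem2. The regulators and transport proteins had a ratio of 1.21, from 667 to 721 CPM in shNC and 809.9 to 852 CPM in shTrem2. In counts of genes, 8 of 11 sterol genes, 4 of 8 mevalonate and isoprenoid genes, 3 of 8 fatty acid genes and 1 of 6 regulators and transport proteins were called higher. Their median log2 fold changes were 0.78, 0.74, 0.50 and 0.26, respectively. The differences between branches were not tested.

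**Figure D2:**
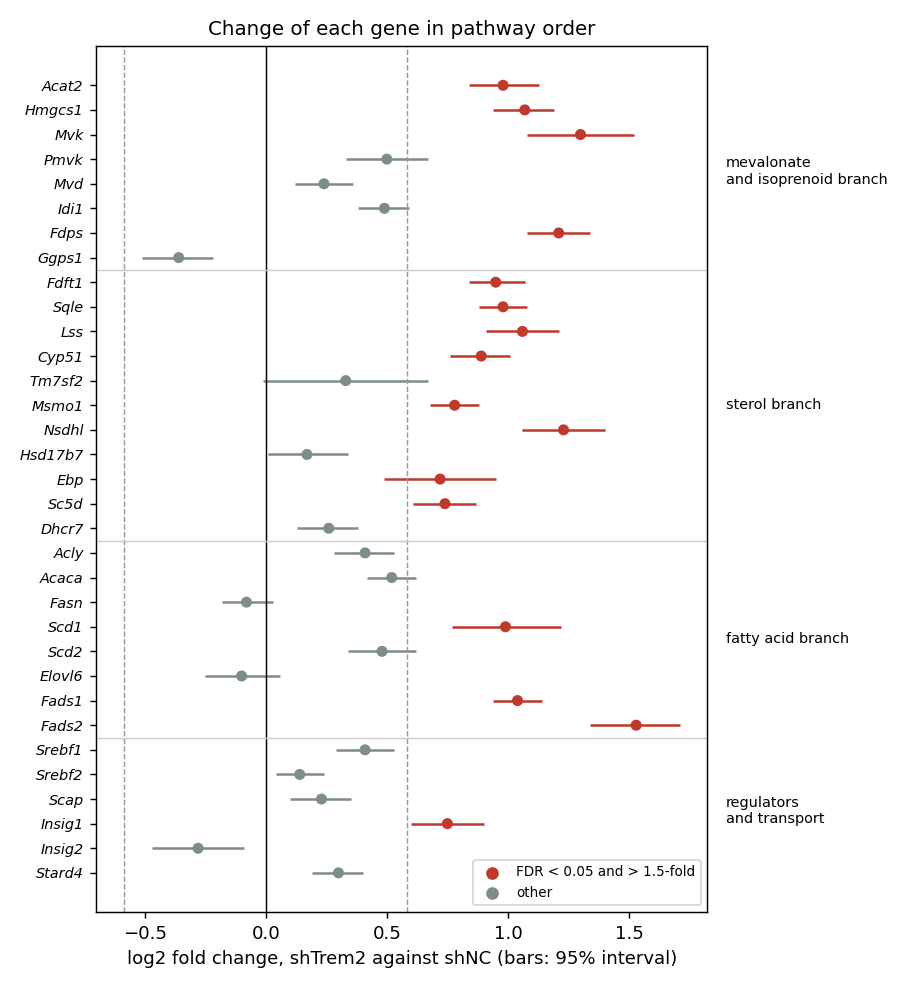
Log2 fold change of shTrem2 against shNC for each of the 33 genes in pathway order (x axis, with 95% intervals from edgeR as bars), with dashed lines at 1.5-fold and red for called genes. The 16 called genes lie to the right, Fads2 furthest at 1.53, and Ggps1 lies furthest to the left at -0.36.

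Early enzymes of the mevalonate branch rose about 2-fold. Acat2 (ENSMUSG00000023832), the cytosolic thiolase that joins 2 acetyl-CoA, had 66.3, 62.4 and 63.9 CPM in shNC and 125, 115 and 141 CPM in shTrem2. The groups did not overlap, and shTrem2 replicate 3 was the highest (log2 fold change 0.98, SE 0.0686, adjusted p = 5.61e-08, edgeR). Acat3, a close paralog, had between 6 and 29 counts per library, and how reads shared by these genes were assigned is uncertain. Hmgcs1 (ENSMUSG00000093930), which makes HMG-CoA, had 99.8, 89.4 and 94.3 CPM in shNC and 199, 185 and 209.7 CPM in shTrem2. Every shTrem2 library was at least 185 CPM where no shNC library exceeded 99.8 CPM (log2 fold change 1.07, SE 0.0577, adjusted p = 5.58e-09). Mvk (ENSMUSG00000041939), the mevalonate kinase, was a low-level gene at 12.0, 10.4 and 13.0 CPM in shNC and 28.5, 26.7 and 31.9 CPM in shTrem2. It had the largest change of the branch, with no overlap (log2 fold change 1.30, SE 0.102, adjusted p = 1.68e-07).

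The next steps of the branch changed less. Pmvk and Mvd, which phosphorylate and then decarboxylate the product of Mvk, and Idi1, which isomerizes isopentenyl diphosphate, rose by 0.50, 0.24 and 0.49 on the log2 scale (adjusted p = 1.14e-04, 0.00253 and 1.53e-06, edgeR), all below 1.5-fold and with no overlap between groups. Fdps (ENSMUSG00000059743), which makes farnesyl diphosphate at the point where the sterol and nonsterol routes part, had 151, 158 and 153 CPM in shNC and 349, 328 and 391 CPM in shTrem2. The shTrem2 libraries were all more than 2 times the highest shNC library (log2 fold change 1.21, SE 0.0596, adjusted p = 2.38e-09). Fdps has processed pseudogenes, and how reads shared with them were counted is not given in the sources used here. Ggps1 (ENSMUSG00000021302), which turns farnesyl diphosphate into geranylgeranyl diphosphate for the nonsterol route, moved the other way. Its values were 37.2, 39.9 and 39.5 CPM in shNC and 32.0, 29.9 and 28.9 CPM in shTrem2, with all 3 shTrem2 libraries the lower. The fall was small, with a log2 fold change of -0.36 (SE 0.0664, adjusted p = 3.60e-04), and over the alternatives it ranged from -0.46 to -0.31. Exons of Ggps1 overlap on the opposite strand those of Arid4b, which averaged 878.2 counts per library.

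In the sterol branch all 11 log2 fold changes were positive, and 9 passed the FDR threshold. Fdft1 (ENSMUSG00000021273), the squalene synthase, had 51.2, 48.5 and 47.6 CPM in shNC and 95.6, 95.7 and 94.0 CPM in shTrem2. The 3 libraries of each group lay close together and far from the other group (log2 fold change 0.95, SE 0.0534, adjusted p = 7.53e-09, edgeR). Exons of Fdft1 overlap on the opposite strand those of Ctsb, which was far more abundant and moved by -0.16 on the log2 scale. Sqle (ENSMUSG00000022351), the squalene epoxidase, had 104, 104 and 105 CPM in shNC and 206, 199 and 212 CPM in shTrem2. Its shNC libraries varied less than those of any other of the 33 genes in CPM (SD 0.314), and the groups did not overlap (log2 fold change 0.98, SE 0.0454, adjusted p = 1.40e-09). Lss (ENSMUSG00000033105), which closes the ring to lanosterol, had 83.9, 79.2 and 74.1 CPM in shNC and 162, 150.4 and 182 CPM in shTrem2. The shTrem2 libraries were all higher (log2 fold change 1.06, SE 0.0694, adjusted p = 3.02e-08). The change of Lss depended on how its transcripts were summed, since the row with the highest mean held 48.3% of the Lss counts in shNC and 71.9% in shTrem2, and its log2 fold change over the alternatives ranged from 0.98 to 1.62.

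The genes that trim lanosterol to cholesterol rose to different extents. Cyp51 (ENSMUSG00000001467), the lanosterol 14α-demethylase, had 87.3, 87.2 and 82.1 CPM in shNC and 164, 146 and 164 CPM in shTrem2. Its groups stood well apart (log2 fold change 0.89, SE 0.0559, adjusted p = 2.24e-08, edgeR). Msmo1 (ENSMUSG00000031604), which starts the removal of the C4 methyl groups, had 103, 97.9 and 98.3 CPM in shNC and 172, 166 and 176 CPM in shTrem2. Again no library of either group fell within the range of the other (log2 fold change 0.78, SE 0.047, adjusted p = 1.46e-08). Nsdhl (ENSMUSG00000031349), the dehydrogenase of the same demethylation, rose most among the sterol genes, from 26.6, 24.7 and 28.2 CPM in shNC to 61.2, 56.7 and 68.3 CPM in shTrem2. All shTrem2 libraries were more than 2 times the highest shNC library (log2 fold change 1.23, SE 0.0788, adjusted p = 2.58e-08). Hsd17b7, the ketosteroid reductase that completes the same step, had group means of 39.4 ± 2.06 and 44.4 ± 4.73 CPM (SD, n = 3), the groups overlapped and the test was not passed (log2 fold change 0.17, adjusted p = 0.0732). It passed without shTrem2 replicate 1 (log2 fold change 0.24, adjusted p = 0.0257) and with the effective-length offset (0.25, adjusted p = 0.0441).

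Ebp (ENSMUSG00000031168), the sterol isomerase, had 15.4, 15.8 and 14.7 CPM in shNC and 26.5, 21.0 and 28.1 CPM in shTrem2. The groups did not overlap, although shTrem2 replicate 2 was well below the other two (log2 fold change 0.72, SE 0.107, adjusted p = 6.37e-05, edgeR). In FPKM or with an offset for effective length the change of Ebp was between 0.38 and 0.45 on the log2 scale, below 1.5-fold. Sc5d (ENSMUSG00000032018), the C5 desaturase, had 61.5, 58.0 and 55.3 CPM in shNC and 99.6, 91.4 and 101 CPM in shTrem2. It was higher in every shTrem2 library (log2 fold change 0.74, SE 0.0601, adjusted p = 2.31e-07), and its highest transcript row alone gave 0.52. Dhcr7, the reductase of the last step to cholesterol, was higher in all 3 shTrem2 libraries but by little, with group means of 61.2 ± 2.13 and 73.2 ± 4.03 CPM (SD, n = 3; log2 fold change 0.26, adjusted p = 0.00196). Its highest transcript row alone gave 0.17 and missed the threshold (adjusted p = 0.118). Tm7sf2, a sterol C14 reductase, was among the lowest of the 33 genes in CPM. Its group means were 8.95 ± 0.953 and 11.2 ± 2.39 CPM (SD, n = 3), with overlap (log2 fold change 0.33, adjusted p = 0.089). Without shTrem2 replicate 2 its log2 fold change was 0.50 (adjusted p = 0.00664), and with no filter beyond 1 count it was 0.32 (adjusted p = 0.0401). The exons of Tm7sf2 overlap those of Vps51 on the same strand.

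In the fatty acid branch the desaturases rose, and the synthase did not pass the test. Acly, which makes cytosolic acetyl-CoA from citrate, and Acaca, which makes malonyl-CoA, rose by 0.41 and 0.52 on the log2 scale (adjusted p = 4.93e-05 and 6.90e-07, edgeR), below 1.5-fold and without overlap. Fasn, the synthase that builds palmitate, had group means of 564 ± 5.22 and 535 ± 31.0 CPM (SD, n = 3), with overlap. Its log2 fold change was -0.08 with a 95% interval from -0.18 to 0.03 (adjusted p = 0.191), an interval that holds neither the change of Acly nor that of Acaca. Elovl6, which lengthens palmitate, had group means of 76.1 ± 8.01 and 71.1 ± 2.97 CPM (SD, n = 3) and overlapping groups (log2 fold change -0.10, 95% interval from -0.25 to 0.06, adjusted p = 0.27). Without shNC replicate 3, the lowest of its group, the log2 fold change of Elovl6 was -0.18 (adjusted p = 0.0204).

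Scd1 and Scd2 insert the first double bond into palmitate and stearate. Scd1 (ENSMUSG00000037071) had 63.4, 62.9 and 57.6 CPM in shNC and 117, 101 and 148 CPM in shTrem2. The groups did not overlap, and the shTrem2 libraries were spread widely (log2 fold change 0.99, SE 0.106, adjusted p = 3.03e-06, edgeR). In the FPKM table the shNC values of Scd1 were 14.1, 27.8 and 22.8, a spread that its counts did not show, and limma on log2(FPKM + 1) gave 0.63 with adjusted p = 0.111. Scd2 (ENSMUSG00000025203), the more abundant of the pair, had 979, 971 and 937 CPM in shNC and 1306, 1209 and 1511 CPM in shTrem2. It was higher in every shTrem2 library, by less than 1.5-fold (log2 fold change 0.48, SE 0.0671, adjusted p = 3.64e-05). Reads that the similar coding regions of Scd1 and Scd2 share could have been divided between them by the counting. Of the desaturases of polyunsaturated fatty acid synthesis, Fads1 (ENSMUSG00000010663), the delta-5 desaturase, had 159.6, 167 and 175 CPM in shNC and 347, 342 and 341 CPM in shTrem2. Its shTrem2 libraries were nearly equal and all about 2 times the shNC level (log2 fold change 1.04, SE 0.0461, adjusted p = 9.08e-10). Fads2 (ENSMUSG00000024665), the delta-6 desaturase, had 139, 130.1 and 136 CPM in shNC and 388, 330.5 and 451 CPM in shTrem2. This was the largest change of the 33 genes, with the groups far apart (log2 fold change 1.53, SE 0.0862, adjusted p = 8.05e-09).

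Among the regulators only Insig1 was called. Srebf1 (ENSMUSG00000020538), which encodes SREBP-1, had 99.3, 96.2 and 105 CPM in shNC and 129, 127 and 143 CPM in shTrem2. It rose in all 3 shTrem2 libraries by less than 1.5-fold (log2 fold change 0.41, SE 0.0568, adjusted p = 3.26e-05, edgeR). Srebf2 (ENSMUSG00000022463), which encodes SREBP-2, had 349, 337 and 317 CPM in shNC and 376, 360.0 and 372 CPM in shTrem2. The groups did not overlap but were close (log2 fold change 0.14, SE 0.0473, adjusted p = 0.0189), and the threshold was missed without shNC replicate 2, without shNC replicate 3 or without shTrem2 replicate 1 (adjusted p = 0.0679, 0.0722 and 0.0742). It was also missed with library size only (0.0663), with the highest transcript row alone (0.0544) and with limma on FPKM (0.0779 and 0.0782 for pseudocounts of 1 and 0.1). Scap, the escort that carries SREBPs to the Golgi, and Stard4, a cytosolic carrier of cholesterol, rose by 0.23 and 0.30 on the log2 scale (adjusted p = 0.0041 and 1.90e-04). For Scap the change in FPKM was 0.09 and the threshold was missed.

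The Insig pair differed in direction, and the fall of Insig2 depended on the processing. Insig1 (ENSMUSG00000045294), the anchor that is itself a strong SREBP target, had 80.2, 74.0 and 65.0 CPM in shNC and 125, 116 and 129 CPM in shTrem2. All shTrem2 libraries were higher (log2 fold change 0.75, SE 0.0704, adjusted p = 8.89e-07, edgeR). Insig2 (ENSMUSG00000003721), the anchor that is less dependent on SREBPs, had 31.9, 26.4 and 30.0 CPM in shNC and 23.9, 26.5 and 22.4 CPM in shTrem2. Here shTrem2 replicate 2 lay just inside the shNC range (log2 fold change -0.28, SE 0.0881, adjusted p = 0.0154). The FDR threshold was missed without shNC replicate 1 or without shTrem2 replicate 1 (adjusted p = 0.0662 and 0.0539), with the highest transcript row alone (0.0674), with the effective-length offset (0.209) and with limma on FPKM (0.231 and 0.227 for pseudocounts of 1 and 0.1).

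For each of 4 pairs of related genes, the log2 ratio of their CPM was taken within every library. Insig1 over Insig2 was 1.32, 1.47 and 1.10 in shNC and 2.36, 2.10 and 2.50 in shTrem2, a difference of 1.02. Scd1 over Scd2 was -3.94, -3.94 and -4.01 in shNC and -3.47, -3.58 and -3.35 in shTrem2, a difference of 0.50 that was 0.21 in FPKM. Srebf1 over Srebf2 was -1.81, -1.80 and -1.59 in shNC and -1.54, -1.50 and -1.37 in shTrem2, a difference of 0.26. In these pairs the first gene gained on the second and the groups did not overlap. Fads1 over Fads2 was 0.20, 0.36 and 0.36 in shNC and -0.16, 0.05 and -0.40 in shTrem2, a difference of -0.48, so that Fads2 gained on Fads1. The two-sided exact permutation p was 0.1 for each pair, the smallest that 3 against 3 libraries can give, and 0.1 after adjustment over the 4 pairs.

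**Figure D3:**
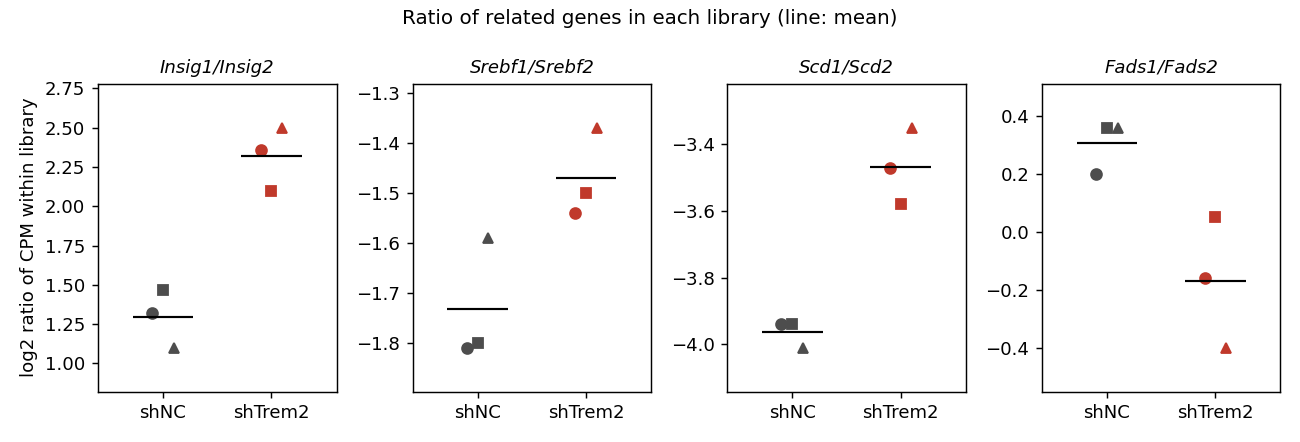
Log2 ratio of CPM within each library (y axis) for Insig1/Insig2, Srebf1/Srebf2, Scd1/Scd2 and Fads1/Fads2, with a point per library (circle, square and triangle for replicates 1, 2 and 3) and a line at the mean of each group. The groups do not overlap in any panel, and the largest shift is that of Insig1/Insig2, from a mean of 1.30 in shNC to 2.32 in shTrem2.

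Levels between genes were compared in FPKM, which is per length of transcript. In shNC the order was led by Scd2 at 188 ± 5.25 FPKM (SD, n = 3), Fdps at 167 ± 3.59 and Fasn at 97.0 ± 5.44, and it ended with Hsd17b7, Tm7sf2 and Mvk at 9.63 ± 0.399, 9.56 ± 1.45 and 9.41 ± 1.06 FPKM, which did not differ beyond their spread. In shTrem2, Fdps led at 376 ± 37.3 FPKM, ahead of Scd2 at 256 ± 29.8, and Fads2 moved from rank 9 to rank 3 at 135 ± 21.1 FPKM. Fasn, whose change did not pass the test, went from rank 3 to rank 8 as others rose past it. The fatty acid genes held 36.5% of the summed FPKM of the 33 genes in shNC and 34.1% in shTrem2.

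**Figure D4:**
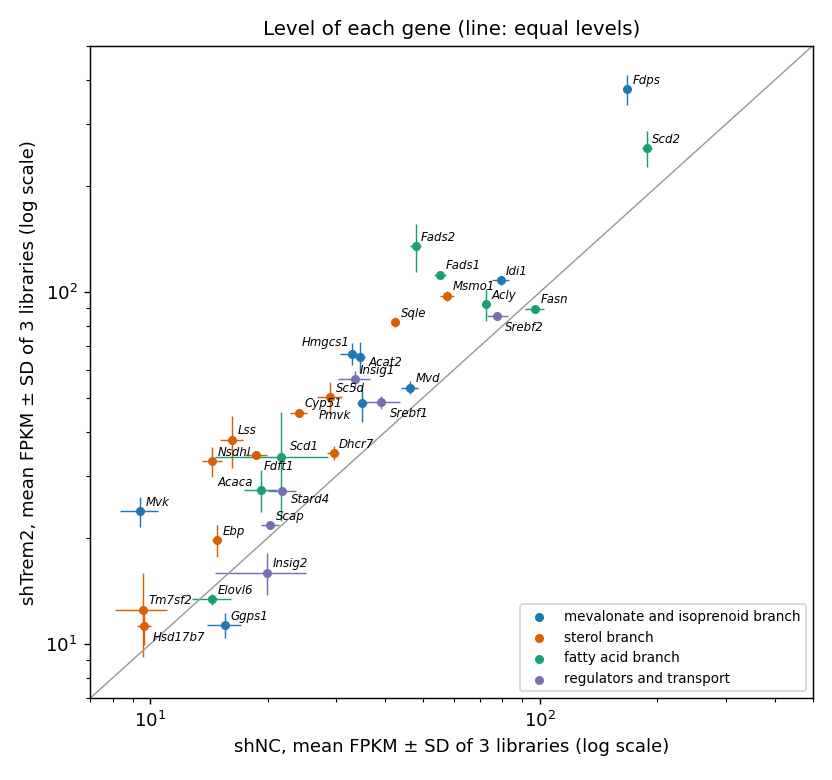
Mean FPKM of each of the 33 genes in shTrem2 (y axis) against shNC (x axis), both on log scales, with SD of 3 libraries as bars, colours for the branches and a line of equal levels. Fdps and Scd2 are the highest in both groups, and Ggps1, Insig2, Elovl6 and Fasn lie below the line.

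Within the groups the same libraries tended to be the highest or lowest across the genes. In shTrem2, replicate 3 was the highest of its group in 21 of the 33 genes, and replicate 2 was the lowest in 25 of the 33. Over all tested genes these shares were 35.9% and 35.2%. Among the 16 called genes replicate 3 was the highest in 13 and replicate 2 the lowest in 14. In shNC, replicate 1 was the highest in 22 of the 33 genes, against 32.3% of all tested genes. The differences were small beside the difference between groups. The median of the 33 genes relative to the group mean was -0.070 on the log2 scale in shTrem2 replicate 2 and 0.054 in replicate 3, and no gene called higher lost its call when any single library was left out. Genes of a pathway in a library are not independent, so these counts describe the libraries.

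**Figure D5:**
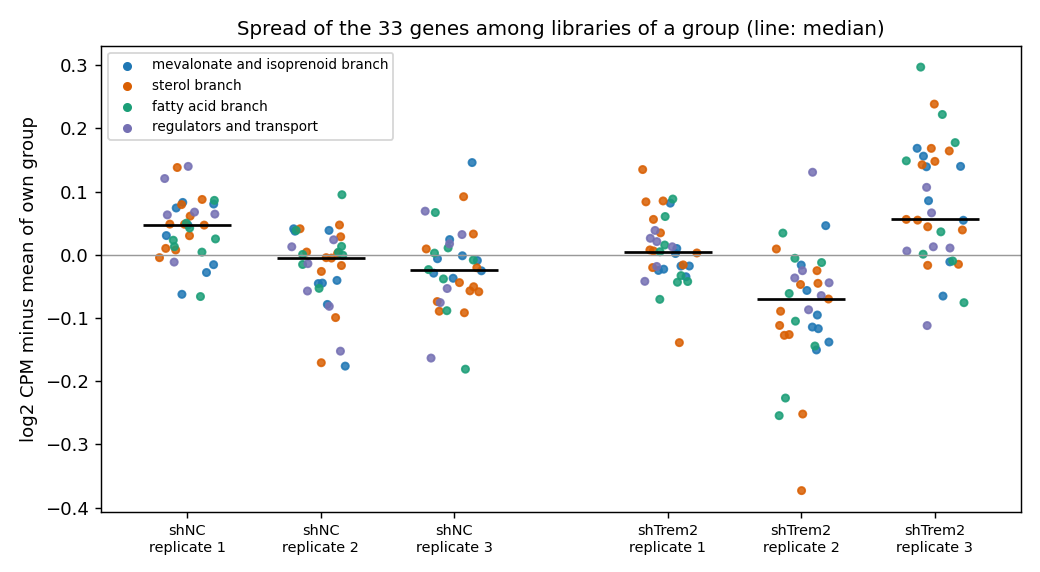
Each point is one of the 33 genes in a library, with log2 CPM minus the mean of its own group on the y axis, colours for the branches and a line at the median of each library. The median lies lowest in shTrem2 replicate 2 (-0.070) and highest in shTrem2 replicate 3 (0.054).

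The transcript rows behind the sums moved mostly the same way. The 33 genes had 206 rows, of which 86 averaged at least 10 counts, and 66 of these were higher and 20 lower in shTrem2 by their group means. All 3 shTrem2 libraries lay above all 3 shNC libraries in 44 of the 86 rows and below them in 4. All 4 such rows of Fdps and all 4 of Fads1 were higher, whereas all 4 of Ggps1 and all 4 of Fasn were lower. Shares over all transcript rows of the data were not computed, so these counts describe the 86 rows only. In the annotation of GRCm38, exons of 4 of the 33 genes overlap exons of another gene on the same strand and those of 9 on the opposite strand. The library kit and the alignment kept strand, and whether the counting used it is not given in the sources used here.

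Genes around the pathway were read from fixed lists in the same fit. Of 15 genes that process SREBPs or act as their cofactors, 1 was called higher and 1 lower, with a median log2 fold change of 0.02. Among all tested genes 9.46% were called higher and 12.4% lower. The gene called higher was Nfyc, a subunit of NF-Y (log2 fold change 1.08, SE 0.0816, adjusted p = 1.16e-07, edgeR), and the gene called lower was Rnf145, a sterol-responsive ubiquitin ligase (-0.78, SE 0.0887, adjusted p = 5.58e-06). The other NF-Y subunits, Nfya and Nfyb, had log2 fold changes of 0.02 and 0.04 and did not pass the test. Of 12 tested genes that supply acetyl-CoA, acetoacetyl-CoA or NADPH, 4 were called higher (33.3%, against 9.46% of all tested genes). In the same list 1 was called lower, against 12.4% of all tested genes, and the median was 0.38. Me1, the malic enzyme that yields NADPH, rose from 77.8 ± 2.35 to 319 ± 46.4 CPM (SD, n = 3; log2 fold change 2.04, adjusted p = 6.78e-10), more than any of the 33 genes. Cs, the citrate synthase, Aacs, which activates acetoacetate for sterol synthesis, and Pgd, of the pentose phosphate pathway, rose by 1.00, 0.83 and 0.75 on the log2 scale.

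Of 11 tested genes of other fatty acid elongation and desaturation, the dehydratase genes Hacd1 and Hacd2 were called, in opposite directions. The share called higher was 9.09%, near the 9.46% of all tested genes, of which 12.4% were called lower. Hacd1 was low, at 1.7 ± 0.135 and 3.49 ± 0.211 CPM (SD, n = 3; log2 fold change 1.04, adjusted p = 0.00105, edgeR), and Hacd2 fell from 226 ± 3.55 to 86.8 ± 4.31 CPM (log2 fold change -1.38, adjusted p = 1.94e-10). Of 12 genes that use isoprenoids outside the sterol route, Pdss1, which builds the tail of coenzyme Q, was called higher (log2 fold change 1.00, adjusted p = 2.13e-05). None was called lower, and the median was -0.01. The share called higher was 8.33%, near the 9.46% of all tested genes.

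Genes of the cell cycle were also mostly higher in shTrem2. Of 20 such genes 18 were called higher and none lower, with a median log2 fold change of 0.85, against 9.46% of all tested genes called higher. Their summed level was between 2447 and 2668 CPM in shNC and between 4299 and 4763 CPM in shTrem2. In shTrem2 it was lowest in replicate 2 and highest in replicate 3. The sums of the 33 genes and of the macrophage markers had the same order there. In shNC the orders differed, with 2554, 2447 and 2668 CPM for the cell cycle genes and 4413, 4302 and 4236 CPM for the 33 genes. Tyms, Mcm5 and Ccne2, which act in DNA synthesis and its onset, had the largest changes, at 1.38, 1.16 and 1.08 on the log2 scale. Macrophage markers moved as well. Of 11 tested, 4 were called higher (Mrc1, Lyz2, Fcgr1 and Csf1r, by 2.76, 1.39, 0.85 and 0.76 on the log2 scale) and Itgam lower (-0.78), and Mrc1 was at or below 71 counts in every library. The share called higher was 36.4%, against 9.46% of all tested genes, of which 12.4% were called lower. The list summed to between 5702 and 6704 CPM in shNC and between 10863 and 12275 CPM in shTrem2, and without Lyz2 to between 3182 and 3503 CPM and between 4044 and 4368 CPM. Adgre1, which encodes the macrophage antigen F4/80, fell by 0.56 on the log2 scale (adjusted p = 3.54e-05, edgeR), below 1.5-fold. The part of the cell cycle, of the macrophage markers or of the counts of the tubular list in the change of the 33 genes was not tested. In bulk libraries, more cells that express a gene and more RNA of it per cell cannot be told apart.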

How the data were processed

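RNA of 6 RAW264.7 libraries (3 shNC, 3 shTrem2), grouped by the shRNA in their labels, was analysed. Per the methods, the authors used fastp for trimming, HISAT2 for strand-aware alignment and StringTie for assembly; versions, annotation release and counting tool are not given in the sources used here. The authors deposited estimated counts per transcript (79.3% of nonzero values not whole) and FPKM per gene. The unit of the second table was inferred from its values, and the authors' group means were not used. Counts were summed per symbol and rounded. Rows without a symbol (0.908% to 1.123% of counts) were left out. edgeR 4.0.16 in R 4.3.3 (TMM, filterByExpr, glmQLFit, glmQLFTest, no covariates) was fitted over 13528 genes, with Benjamini-Hochberg adjustment. Calls needed FDR under 0.05 and over 1.5-fold. Pair ratios used a pseudocount of 0.5 CPM. Scripts were tested on simulated data.

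The members and lists were chosen with earlier results of these data known. All 33 genes are named. Libraries are given singly for called genes and for related pairs, and up to 3 called genes with the largest changes are named per other list. Arg1, Epcam, Umod, Cd68, Ptprc, Csf1r, Itgam, Adgre1, Pgd, Nfya, Nfyb, Soat1, Acat3, Ctsb, Vps51 and Arid4b were added with their values known. A gene of the acetyl-CoA and NADPH list is not reported here. The alternatives tried were DESeq2 1.42.0, RLE, upper quartile or no scaling, other filters and thresholds, limma 3.58.1 (voom, and trend on log2(FPKM + 1) and log2(FPKM + 0.1)), glmTreat, the highest transcript row, an effective-length offset (available for 11813 genes), a replicate block and each library left out.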

Additional observations from a re-analysis of the deposited data

How the results depend on the processing

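The count of the 33 genes called higher was 16 and stayed within 1.5 times of that in all but 2 of the settings tried. It was 7 with a fold change over 2 and 27 with no threshold on fold change, where 2 were called lower in place of none. All 16 genes kept their call with DESeq2, limma-voom, RLE, upper quartile or no scaling, both other count filters, FDR under 0.01 and each library left out. With glmTreat 15 of them kept it, with limma on FPKM 14 (Ebp and Scd1 lost), with the highest transcript row 15 (Sc5d lost) and with the effective-length offset 15 (Ebp lost). Among all tested genes, 2951 were called, against 1515 with glmTreat, 1339 over 2-fold and 7763 with no fold threshold. The median of the mevalonate and isoprenoid branch was 0.74, between 0.69 and 0.81 with each library left out (0.81 without shTrem2 replicate 2), and 0.67 with limma on log2(FPKM + 1). The tubular epithelial list had 1 called gene, and 0 when at least 10 counts were required in every library, a filter that removes Aqp1. No log2 fold change of the 33 genes changed sign.

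With the replicate number as a block, 16 of the 33 genes were called higher, the same 16. The numbers were not taken as pairs, since same-numbered libraries deviated from their group means with correlations of 0.006, -0.004 and 0.007 over genes. The other results kept their side of the threshold under the block. Scaling moved the median of all genes to -0.0341 at most. The depth limits mainly Tm7sf2, Mvk and Ebp, which had the lowest CPM of the 33 genes, and Arg1 and the tubular genes at or near 0 counts.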

Other observations

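Lists of genes that handle sterols and fatty acids after their synthesis had called genes in both directions, falls only, or no calls. Of 8 tested LXR targets and sterol efflux genes, 2 were called higher and 1 lower, with a median log2 fold change of 0.05. Among all tested genes 9.46% were called higher and 12.4% lower. Nr1h3, which encodes the sterol sensor LXR alpha, rose from 1.74 ± 0.0703 to 5.09 ± 0.708 CPM (SD, n = 3; log2 fold change 1.55, adjusted p = 2.43e-05, edgeR), and Pltp, a phospholipid transfer protein, rose from 50.5 ± 9.01 to 111 ± 11.6 CPM (1.13, adjusted p = 7.74e-07). Mylip, a ubiquitin ligase that is an LXR target, fell from 14.8 ± 0.514 to 8.04 ± 1.55 CPM (-0.88, adjusted p = 7.88e-05). The sterol exporter Abca1 had too few counts to be tested.

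Of 12 genes of sterol and triglyceride storage and lysosomal release, none was called higher and 3 were called lower, with a median of -0.29. The shares of all tested genes were 9.46% called higher and 12.4% called lower. By FDR alone 2 of the 12 rose and 7 fell, against 28.8% and 28.6% of all tested genes. The 3 called genes follow. These were Soat2, which esterifies cholesterol (log2 fold change -0.83, adjusted p = 0.00152, edgeR), Plin3, a coat protein of lipid droplets (-0.74, adjusted p = 7.73e-07), and Pnpla2, the lipase that releases fatty acids from droplets (-0.73, adjusted p = 2.25e-05). The groups of these 3 genes did not overlap. Every shTrem2 library lay below every shNC library in 31.7% of all tested genes. Soat2 was low, at 10.7 ± 0.813 and 6.03 ± 1.89 CPM (SD, n = 3). Its more abundant paralog Soat1 rose from 209.7 ± 6.5 to 242 ± 15.6 CPM, by less than 1.5-fold (log2 fold change 0.20, adjusted p = 0.00433, edgeR). Of 16 tested genes of fatty acid oxidation none was called by edgeR, against 21.8% of all tested genes called in either direction. By the FDR threshold alone 10 passed, with 5 in each direction, and the median was -0.01. Over all tested genes 57.4% passed that threshold, 28.8% higher and 28.6% lower, so by FDR alone the share of this list is near the background.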
